A study of Mus musculus with 14 samples.

Results

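Lyl1, Tal1, Sox7, Sox17, Sox18, Erg, Fli1, Gata2, Klf2 and Klf4 are transcription factors that set and keep the identity of endothelial and blood cells. They were taken from the count table by symbol, and all 10 were found among its 46095 gene symbols. All 10 were also among the 17693 genes that passed the low-count filter, and the lowest count of any of them in any mouse was 29, for Lyl1. The genes were chosen by name with results of these same mice known, so their levels and fold changes, which may have been selected on, are given as a description. The false discovery rates (FDR) beside them were adjusted over all 17693 genes.

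RNA of the superior mesenteric artery, a vessel that feeds the gut, was sequenced in 14 C57BL/6 mice of 8 weeks. The normal groups held 3 WT mice (Drp1 +/+) and 4 mice called KO here, and the ischemic groups again 3 WT and 4 KO mice. The study asked what Drp1, the dynamin-like enzyme of mitochondrial fission, does to gene expression in ischemic vessels. The labels give the KO genotype as Drp1 flox/+, whereas the study's methods describe a heterozygous frameshift in an early exon made with CRISPR/Cas9, so at most 1 allele was disrupted, and whether the flox allele was deleted is not stated. The study describes checks of the allele by reads over that exon and by protein, which were not repeated here. No Cre or other transgene is named. Ischemia was a systemic one, made by bleeding from a femoral artery, and library names of the ischemic mice carry 2 h while the paper's group name carries a longer time. Whether normal mice had the same anaesthesia and catheter is not stated.

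Tal1 and Lyl1 are close relatives of the basic helix-loop-helix class. They bind DNA together with an E protein (Tcf3, Tcf4 or Tcf12) and are joined through Lmo2 and Ldb1 to a Gata factor, in endothelium mostly Gata2. Sox7, Sox17 and Sox18 make up the SoxF group, which acts in arterial, venous and lymphatic development. Erg and Fli1 are Ets factors that keep endothelial genes switched on, and Klf2 and Klf4 are induced in endothelium by laminar blood flow, through the kinases Map3k2 and Map3k3, Map2k5 and Mapk7 and the Mef2 factors. In an artery wall the endothelium is a thin layer among much smooth muscle, so a level in whole tissue depends both on how many such cells were in the sample and on how much RNA each held, and these cannot be told apart here.

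The promoters of 2 pairs of relatives are shown, since within each pair 1 gene separated ischemic from normal mice of the same genotype and the other did not. They are the 250 bases before the transcript start in RefSeq on GRCm38.p6, written 5′ to 3′ on the gene's own strand. Promoters were matched for 6 of the 10 genes (Lyl1, Tal1, Erg, Gata2, Klf2 and Klf4). The Lyl1 window is chr8:84701207-84701456 on the plus strand, and its capitals mark GGAA or its reverse complement, the core bound by Ets factors. The Tal1 window is chr4:115056176-115056425 on the plus strand and belongs to the more upstream of its 2 starts, with GATAA marked. The Klf2 window is chr8:72318812-72319061 on the plus strand, with CTANNNNTAG, a form of the Mef2 site, marked. The Klf4 window is chr4:55532476-55532725 on the minus strand, where CACCC, the box bound by Klf factors, was searched.
Lyl1: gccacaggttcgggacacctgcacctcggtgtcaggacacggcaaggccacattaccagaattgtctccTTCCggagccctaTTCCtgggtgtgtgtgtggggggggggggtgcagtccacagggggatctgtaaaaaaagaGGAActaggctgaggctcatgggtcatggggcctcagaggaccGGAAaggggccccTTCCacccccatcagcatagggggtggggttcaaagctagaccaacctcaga
Tal1: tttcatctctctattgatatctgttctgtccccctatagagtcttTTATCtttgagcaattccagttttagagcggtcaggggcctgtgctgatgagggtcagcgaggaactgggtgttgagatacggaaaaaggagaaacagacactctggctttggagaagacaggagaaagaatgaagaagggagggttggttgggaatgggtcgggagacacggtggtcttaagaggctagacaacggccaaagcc
Klf2: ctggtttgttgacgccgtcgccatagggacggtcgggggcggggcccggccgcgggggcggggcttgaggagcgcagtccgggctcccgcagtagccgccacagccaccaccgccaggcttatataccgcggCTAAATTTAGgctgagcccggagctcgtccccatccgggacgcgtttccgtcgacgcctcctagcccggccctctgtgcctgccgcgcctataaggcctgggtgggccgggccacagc
Klf4: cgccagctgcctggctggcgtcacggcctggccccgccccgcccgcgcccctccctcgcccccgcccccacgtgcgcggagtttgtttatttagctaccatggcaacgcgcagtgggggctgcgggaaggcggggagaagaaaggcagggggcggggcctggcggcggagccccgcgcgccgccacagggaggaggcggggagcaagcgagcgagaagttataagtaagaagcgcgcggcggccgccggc
Lyl1 held 5 matches to GGAA, at 181, 168, 108, 65 and 52 bases before the start, and 93.45% of 32851 mouse promoter windows of this length held at least 1. The match nearest the start shared 1 base with a CACCC. The Lyl1 window held 4 matches to CACCC, which are not marked, and the median over all windows was 1. The Tal1 window shown held 4 matches to GGAA, which are not marked, and the median over all windows was 3. It held 1 match to GATAA, at 205 bases before the start, a motif found in 22.58% of the windows. The window of the other Tal1 start, not shown, held 0 matches to GATAA. Klf2 held CTAAATTTAG at 118 bases before the start, and CTANNNNTAG was found in 3.202% of the windows. It overlapped none of the other motifs searched in that window, which were GGAA for Ets, GATAA for Gata, CANNTG for helix-loop-helix, CACCC for Klf and ACAAT for Sox factors, and TGACG. Klf4 held neither this motif nor CACCC, which 52.01% of the windows held. All motifs were searched on both strands, and a match describes letters, not a bound site.

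Total counts were 25612646 to 40255851 per mouse (median 33506452), and 3 counts, taken as the floor, correspond to 0.0678 to 0.113 CPM (counts scaled to a common library size by TMM). Counts of mice of 1 group differed by more than sampling noise in all 18 pairs, and the biological coefficient of variation was 0.522, so the spread between mice limited the precision. Levels of Dnm1l, which encodes Drp1, were 54.8 to 90.9 CPM over the 14 mice. They were 63.8 to 90.9 CPM in normal WT and 54.8 to 62.2 CPM in normal KO mice, without overlap. After ischemia the genotypes overlapped, at 63.1 to 81.0 CPM in WT and 59.99 to 75.96 CPM in KO mice. The share of all genes with every normal KO mouse below every normal WT mouse was not computed. A count over all exons does not check a frameshift. All 9 smooth muscle markers and all 12 endothelial markers listed were detected, although Tagln and Cldn5 were low in every mouse, at 0.675 to 5.78 and 0.0614 to 1.98 CPM. Replicate 3 of the normal WT mice was read in lane 1 and the other 13 mice in lane 8, so lane and mouse cannot be told apart there. Replicate 2 of the normal WT and replicate 4 of the normal KO mice stood apart, with the highest summed levels of 6 brown adipocyte markers (7049 and 6436 CPM, against 188 to 5042 in the other 12) and the lowest of the smooth muscle markers (7916 and 11660 CPM). For Lyl1, Sox18, Klf2, Gata2, Sox7, Sox17, Fli1 and Klf4, fold changes over both genotypes are given with and without these 2 mice.

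Over both genotypes, 2 of the 10 genes fell after ischemia, Lyl1 and Sox18, and none rose. A call required an FDR below 0.05 together with a change of more than 1.5-fold in edgeR's quasi-likelihood test, limits that 0.927% of all tested genes met in either direction and 0.311% in the direction of lower levels. In KO mice 1 of the 10 fell, Lyl1, beside 0.294% of all genes in either direction and 0.107% lower. In WT mice 0 of the 10 were called by edgeR, beside 0.0113% of all genes, although 3 of them had an unadjusted p under 0.05 and DESeq2 called Lyl1 and Sox18. Over all 17693 tested genes, 1693 in WT mice, 2340 in KO mice and 3196 over both genotypes had such a p in edgeR's test. With the replicate number as a block, 0 of all genes were called in WT mice. The median log2 fold change of the 10 was −0.62 over both genotypes, −0.61 in WT and −0.64 in KO mice, against −0.05, −0.01 and −0.05 over all tested genes. These medians depend on the 2 normal mice highest in brown adipocyte markers. Without them Sox7 went from −0.59 to 0.28 over both genotypes, Fli1 from −0.66 to −0.21, Klf4 from −0.12 to 0.24 and Sox17 from 0.35 to 0.75. Lyl1, Sox18, Gata2 and Klf2 were then at −1.98, −1.18, −1.23 and −0.78. Within the list the pattern was uneven, with Lyl1, Sox18, Klf2 and Gata2 at log2 fold changes of −1.18 or lower and Sox17, Erg, Klf4 and Tal1 between −0.15 and 0.35. Every ischemic mouse lay below every normal mouse of its genotype in 3 of the 10 genes in WT mice (Lyl1, Sox18 and Klf2) and in 4 in KO mice (those and Gata2), which 4.42% and 5.6% of all tested genes did. Over all 14 mice this held for Lyl1 and Sox18, beside 0.271% of all genes.

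**Figure D1:**
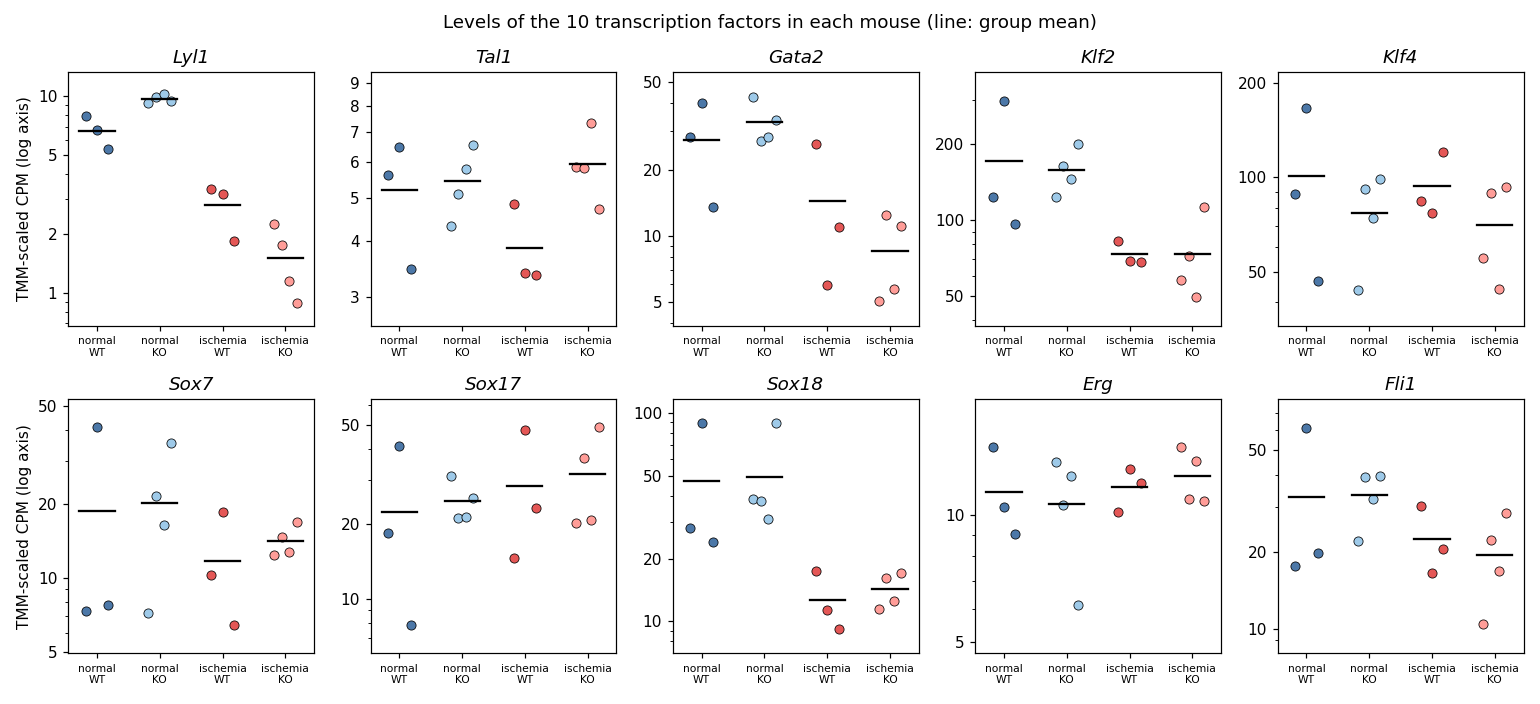
TMM-scaled CPM on a log axis for each of the 10 genes, with 1 point per mouse (3, 4, 3 and 4 mice from left to right) and a line at the group mean; each panel has its own axis range. Lyl1 and Sox18 have no overlap between the 7 normal and the 7 ischemic mice, whereas Tal1, Klf4, Sox17 and Erg overlap throughout.

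Lyl1, encoded on chromosome 8 (84701457 to 84704715, plus strand, GRCm38), is a helix-loop-helix factor of blood and endothelial cells, known for the maturation of newly formed vessels. Under normal conditions it was at 7.94, 6.71 and 5.36 CPM in the WT mice and at 9.28, 9.91, 10.2 and 9.42 CPM in the KO mice. After ischemia it was at 3.38, 3.16 and 1.82 CPM in the WT mice and at 2.23, 1.75, 1.14 and 0.882 CPM in the KO mice. All 7 ischemic mice lay below all 7 normal ones, and the 4 normal KO mice, the highest group, were also the tightest, with a mean of 9.71 ± 0.441 CPM (SD, n = 4). The log2 fold change after ischemia was −1.98 over both genotypes (SE 0.24, FDR = 0.00398) and −2.69 in KO mice (SE 0.33, FDR = 0.0063), where the level fell by 84.5%. In WT mice it was −1.26 (SE 0.36, FDR = 0.513). Lyl1 ranked 6th of the 17693 genes by p over both genotypes and 2nd in KO mice. Both calls held with each of the 14 mice left out in turn (FDR at most 0.0161 and 0.0427). They also held with the 2 mice high in brown adipocyte markers left out (FDR = 0.0154 and 0.0101). With the summed endothelial markers as a covariate the calls held too (log2 fold change −1.98 and −2.70). After group means were removed, Lyl1 had a Pearson's r of 0.019 with that sum. This covariate could therefore hardly move the Lyl1 values and is no check on endothelial content. Lyl1 shares 4 exon bases with its neighbour Nfix, on the opposite strand.

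Among the 10 genes Lyl1 had the lowest interaction value. The difference between the fold changes of KO and WT mice was −1.43 on the log2 scale (SE 0.47, unadjusted p = 0.00896, FDR = 0.946 over all genes in edgeR's test), so it did not pass. Every normal KO mouse lay above every normal WT mouse, as in 2.59% of all tested genes, and 3 of the 4 ischemic KO mice lay below every ischemic WT mouse. Both genotype comparisons use the same mice as the ischemia comparisons.

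Tal1, a master regulator of blood formation, had the narrowest range of the 10 genes. Its normal levels were 5.61, 6.50 and 3.47 CPM in WT and 4.32, 5.11, 5.78 and 6.57 CPM in KO mice. After ischemia they were 4.84, 3.40 and 3.37 CPM in WT and 5.85, 5.84, 7.34 and 4.71 CPM in KO mice. The normal and ischemic mice overlapped in both genotypes, with a log2 fold change of −0.15 over both (95% interval −0.59 to 0.29, FDR = 0.721). Its balance with Lyl1 differed between conditions. Per kb of exon, Lyl1 made up 71.5 to 84.0% of the sum of Tal1 and Lyl1 in the 7 normal mice, 56.8 to 69.4% in the 3 ischemic WT mice and 27.4 to 48.1% in the 4 ischemic KO mice. The means were 76.0% ± 3.94 and 81.3% ± 2.66 in normal WT and KO mice and 63.0% ± 6.26 and 37.3% ± 9.55 in ischemic WT and KO mice (SD, n = 3 or 4). Such a share is formed within each mouse, so scaling of the libraries does not enter it. It holds the same Lyl1 counts as above and is no separate result. How often shares of other gene pairs separate the conditions was not computed, here or for the families below.

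**Figure D2:**
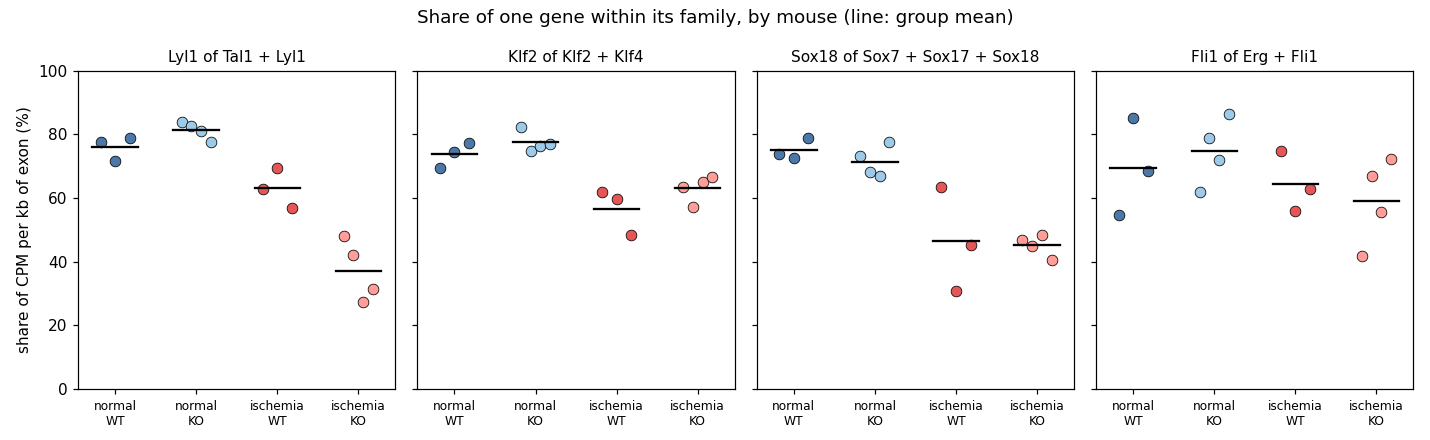
Share of 1 gene in the summed CPM per kb of exon of its family, in percent, with 1 point per mouse and a line at the group mean. The shares of Lyl1, Klf2 and Sox18 in all 7 ischemic mice lie below those in all 7 normal mice, and those of Fli1 overlap. Lyl1 and Sox18 also do not overlap in CPM, so their shares are no separate result, and shares of other gene pairs were not computed.

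Gata2, the Gata factor of endothelium and of blood stem and mast cells, was at 28.1, 40.3 and 13.5 CPM in normal WT and at 42.9, 27.0, 28.01 and 33.7 CPM in normal KO mice. After ischemia it was at 26.2, 5.95 and 10.9 CPM in WT and at 5.05, 12.4, 5.70 and 11.04 CPM in KO mice. The KO groups did not overlap, and the WT groups did, since ischemic replicate 1 was near the normal mice. The log2 fold change was −1.43 over both genotypes (SE 0.35, FDR = 0.0743) and −1.94 in KO mice (SE 0.46, FDR = 0.097), so neither passed. Without ischemic WT replicate 1 the value over both genotypes was −1.81 (FDR = 0.0225) and without normal WT replicate 3, the mouse of lane 1, −1.59 (FDR = 0.0487). Without the 2 mice high in brown adipocyte markers it was −1.23 (FDR = 0.197). DESeq2 called Gata2 over both genotypes (FDR = 0.00232) and in KO mice (FDR = 0.00226). The 7 mast cell markers listed summed to 13.6 to 28.8 CPM in normal WT, 22.6 to 83.1 in normal KO, 14.5 to 24.0 in ischemic WT and 25.5 to 38.3 CPM in ischemic KO mice. All 7 were detected, and the part of such cells in the Gata2 levels was not tested.

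Of the 15 partners of these 3 genes that were listed, 12 were tested and 0 were called in any comparison. Over both genotypes 4 had an unadjusted p under 0.05, as had 3196 of all 17693 tested genes. In KO mice 11 of the 12 had a log2 fold change below 0, with a median of −0.43 against −0.05 over all genes, and in WT mice 6 of the 12, with a median of 0.00 against −0.01. Lmo2, the bridging protein of the complex, was at −0.96 in KO (SE 0.26, FDR = 0.137) and −0.06 in WT mice. Its 4 ischemic KO mice, at 12.7 to 21.9 CPM, lay below the 4 normal ones, at 23.3 to 44.3 CPM. Spi1, the myeloid Ets factor PU.1, was at −1.40 in KO (SE 0.53, FDR = 0.28) and −1.05 in WT mice. Ldb1, Ldb2, Tcf3, Tcf4, Tcf12 and Cbfa2t3 lay between −0.40 and 0.02 over both genotypes, with standard errors of 0.13 to 0.25. Runx1, the factor of blood cell emergence from endothelium, was at 0.72 in WT and −0.68 in KO mice with standard errors of 0.68 and 0.58. Gata1, the erythroid Gata factor, had 22 counts in all 14 mice together and was not tested.

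Klf2, the flow-induced factor that switches on anti-inflammatory and anti-clotting genes, had the highest level of the 10 per kb of exon (mean 64.2 CPM per kb, n = 14 mice). It was at 122.8, 297.3 and 96.2 CPM in normal WT and at 123.9, 163.7, 144.9 and 200.8 CPM in normal KO mice. After ischemia it was at 82.5, 68.7 and 68.1 CPM in WT and at 58.1, 72.0, 49.5 and 112.8 CPM in KO mice. Within each genotype the groups did not overlap, and over all mice 1 ischemic KO mouse lay above the lowest normal WT mouse. The log2 fold change was −1.18 over both genotypes (SE 0.26, 95% interval −1.73 to −0.62), and its FDR of 0.0511 in edgeR's test was just over the limit. It was −1.24 in WT (FDR = 0.513) and −1.12 in KO mice (FDR = 0.185). The call over both genotypes turned on single mice and settings, since the FDR was 0.0337 and 0.0318 without normal WT replicate 1 or 3, 0.0418 without ischemic KO replicate 4, 0.000897 in DESeq2 and 0.124 without the 2 mice high in brown adipocyte markers, where the log2 fold change was −0.78.

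Klf4, its relative, which also acts in smooth muscle cells, was at 88.8, 166.8 and 46.7 CPM in normal WT and at 43.7, 91.8, 74.3 and 99.1 CPM in normal KO mice. After ischemia it was at 83.7, 76.7 and 120.4 CPM in WT and at 55.3, 89.4, 44.1 and 93.1 CPM in KO mice. These ranges overlapped throughout, with a log2 fold change of −0.12 (95% interval −0.73 to 0.49, FDR = 0.847). Klf2 made up 69.5 to 82.4% of the sum of both per kb in normal and 48.3 to 66.7% in ischemic mice, with no overlap.

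Upstream of them, 0 of 16 listed genes of flow signalling were called in any comparison. Over both genotypes 2 had an unadjusted p under 0.05, as had 3196 of all 17693 tested genes. Their median log2 fold change was 0.12 against −0.05 over all genes. Mef2d, the Mef2 gene closest to the limit, was at 0.66 (SE 0.15, FDR = 0.0606), and Mef2a and Mef2c were at 0.31 and 0.28. Mef2d was at 158.1 to 273.3 CPM in the 7 normal and 220.3 to 360.4 CPM in the 7 ischemic mice, with no overlap within either genotype. Mapk7, Map2k5 and Piezo1, the mechanically gated channel, lay between 0.03 and 0.35. Among the 12 other Klf genes listed 1 was called over both genotypes and it rose, Klf15, a factor of glucocorticoid response and fasting metabolism. Klf15 was at 70.2 to 160.2 CPM in the 7 normal mice and at 198.7 to 240.3 CPM in the 7 ischemic ones, with no overlap. Its log2 fold change was 0.80 (SE 0.17, FDR = 0.049). The share of all tested genes that were higher after ischemia without overlap was not computed. How unusual the separations of Mef2d and Klf15 are therefore cannot be said. Klf9, also a glucocorticoid target, was at 0.49 (FDR = 0.128) and Klf6 at −0.04.

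**Figure D3:**
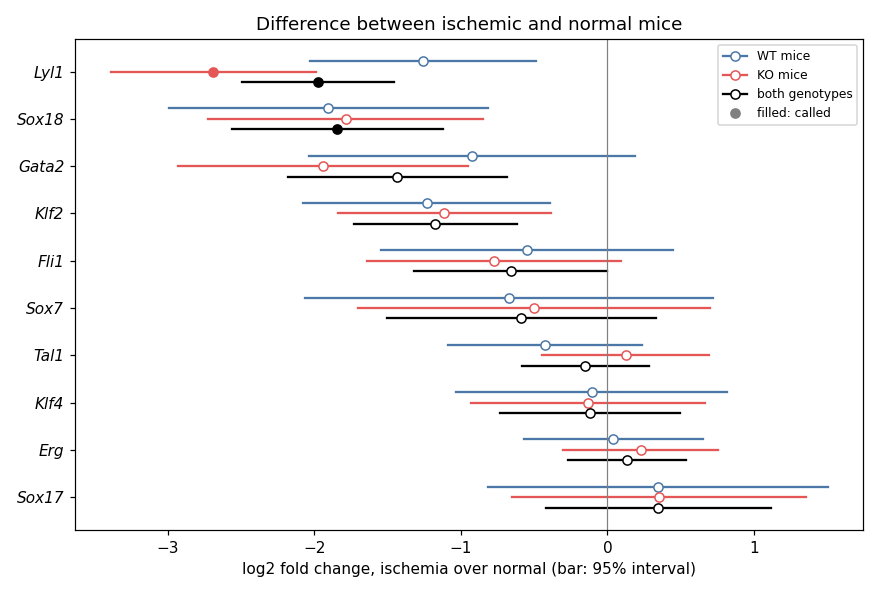
Log2 fold change of ischemic over normal mice for the 10 genes in WT mice (3 against 3), KO mice (4 against 4) and both genotypes, with 95% intervals from edgeR's fit; filled points were called. Lyl1 is filled in KO mice and over both genotypes and Sox18 over both genotypes alone. Over both genotypes the intervals of Tal1, Klf4, Erg, Sox17 and Sox7 span 0.

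Sox18, on chromosome 2 (181669836 to 181671640, minus strand), drives lymphatic and vascular development. It was at 27.9, 89.7 and 24.0 CPM in normal WT and at 38.7, 37.8, 30.9 and 89.4 CPM in normal KO mice. After ischemia it was at 17.4, 11.3 and 9.14 CPM in WT and at 11.4, 16.1, 12.5 and 17.1 CPM in KO mice. All 7 ischemic mice lay below all 7 normal ones, and 2 normal mice, 1 of each genotype, stood well above the others. These were the same 2 mice that were highest in brown adipocyte markers. The log2 fold change was −1.85 over both genotypes (SE 0.34, FDR = 0.0231), −1.91 in WT (FDR = 0.488) and −1.79 in KO mice (FDR = 0.108). Without those 2 mice it was −1.18 over both genotypes (FDR = 0.0245) and −1.30 in KO mice (FDR = 0.0363). The call over both genotypes was lost without any 1 of 5 ischemic mice, namely WT replicates 2 and 3 (FDR = 0.0663 and 0.0816) and KO replicates 1, 2 and 3 (FDR = 0.0505, 0.0552 and 0.0533), with the log2 fold change between −1.75 and −1.87. In KO mice a call was gained without normal WT replicate 2 (FDR = 0.0242). With endothelial markers as a covariate it was −1.41 over both genotypes (FDR = 0.025) and −1.44 in KO mice (FDR = 0.0788). DESeq2 called Sox18 in KO mice (FDR = 0.00399).

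Sox7 and Sox17, the other SoxF genes, did not follow. Sox7 was at 7.32, 41.1 and 7.74 CPM in normal WT and at 6.44 to 18.5 CPM in ischemic WT mice, and at 7.22 to 35.3 and 12.5 to 16.8 CPM in normal and ischemic KO mice. Sox17, an arterial identity factor, was at 7.89 to 41.1 and 21.2 to 31.2 CPM in normal WT and KO mice and at 14.6 to 47.9 and 20.1 to 48.9 CPM in ischemic ones. Their log2 fold changes over both genotypes were −0.59 (95% interval −1.51 to 0.33) and 0.35 (−0.42 to 1.11), and the groups overlapped for both. In Sox7 the direction in WT mice rested on 1 mouse, since without normal WT replicate 2 the value went from −0.67 to 0.62. Sox18 made up 66.9 to 78.8% of SoxF per kb in normal and 30.8 to 63.5% in ischemic mice, with no overlap, and Sox17 7.49 to 20.02% and 18.1 to 44.4%. Of 16.85% of the Sox17 exon bases that overlap a gene on the opposite strand, reads cannot be told apart where counting ignored strand, and whether it did is not given in the sources used here. Of the 9 other Sox genes listed 8 were tested and 0 were called, with a median log2 fold change of −0.35 over both genotypes. There 1 had an unadjusted p under 0.05, as had 3196 of all 17693 tested genes.

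Erg and Fli1, the Ets pair, overlapped between conditions. Erg was at 9.02 to 14.5 and 6.14 to 13.4 CPM in normal WT and KO mice and at 10.2 to 12.8 and 10.8 to 14.5 CPM in ischemic WT and KO mice, with a log2 fold change of 0.13 over both genotypes (95% interval −0.27 to 0.54). Fli1 was at 17.6, 60.8 and 19.8 CPM in normal WT and at 21.95, 39.3, 32.1 and 39.7 CPM in normal KO mice. After ischemia it was at 30.2, 16.5 and 20.4 CPM in WT and at 10.4, 22.3, 16.9 and 28.2 CPM in KO mice. The log2 fold change of Fli1 was −0.66 (95% interval −1.32 to −0.002, FDR = 0.276), and in WT mice it went from −0.55 to 0.24 without normal WT replicate 2. Fli1 holds 10 words of 50 exon bases that also occur in other genes, 0.292% of its words, so this sharing is slight. Ets1, Elk3 and Etv6, relatives with endothelial roles, were at −0.15, −0.46 and 0.22, with an FDR of 0.224 or more.

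Among the 28 other endothelial transcription factors listed, all tested, 1 rose and 3 fell over both genotypes. The list's median was 0.00 against −0.05 over all genes, and 14 values lay on each side of 0. In WT mice 18 of the 28 were above 0 (median 0.32, 7 at an unadjusted p under 0.05) and in KO mice 19 were below (median −0.21, 10 at an unadjusted p under 0.05). Of all 17693 tested genes, 1693 in WT and 2340 in KO mice had such a p. For KO against WT after ischemia 24 of the 28 were below 0 (median −0.52 against −0.03 over all genes), with 10 at an unadjusted p under 0.05 and 0 called by edgeR. Of all 17693 tested genes, 1146 had such a p there. Brown adipocyte markers summed to 284.1 to 1549 CPM in ischemic WT and 1037 to 5042 CPM in ischemic KO mice, and the part of this in these values was not tested. Zfp366, a zinc finger protein also known as DC-SCRIPT from dendritic cells, fell by 2.53 on the log2 scale (SE 0.46, FDR = 0.0232), from 2.71 to 18.2 CPM in normal mice to 0.680 to 3.44 CPM in ischemic ones. Meox2, a homeobox factor, fell by 1.80 (SE 0.37, FDR = 0.0389). Nr2f2 (COUP-TFII), which gives veins and lymphatics their identity, fell by 1.09 over both genotypes (SE 0.23, FDR = 0.0461) and by 1.77 in KO mice (SE 0.31, FDR = 0.0302), the single call of the list there. Its 4 ischemic KO mice were at 16.4 to 25.3 CPM and the normal ones at 47.9 to 112.5 CPM, while WT mice overlapped. Foxf1, a forkhead factor of vascular mesenchyme and endothelium, rose by 1.31 (SE 0.25, FDR = 0.0276). Hhex, a homeobox factor of early endothelial and blood cells, had the lowest value of the list, −2.89 (SE 0.68), without passing (FDR = 0.0676). It was at 1.70 to 6.53 CPM in normal and 0 to 2.10 CPM in ischemic mice, and 1 ischemic KO mouse had no count. Foxc2, Bcl6b, Mecom, Prox1 and Epas1, further factors of endothelial and lymphatic fate, lay between −0.42 and 0.64 with an FDR of 0.173 or more.

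**Figure D4:**
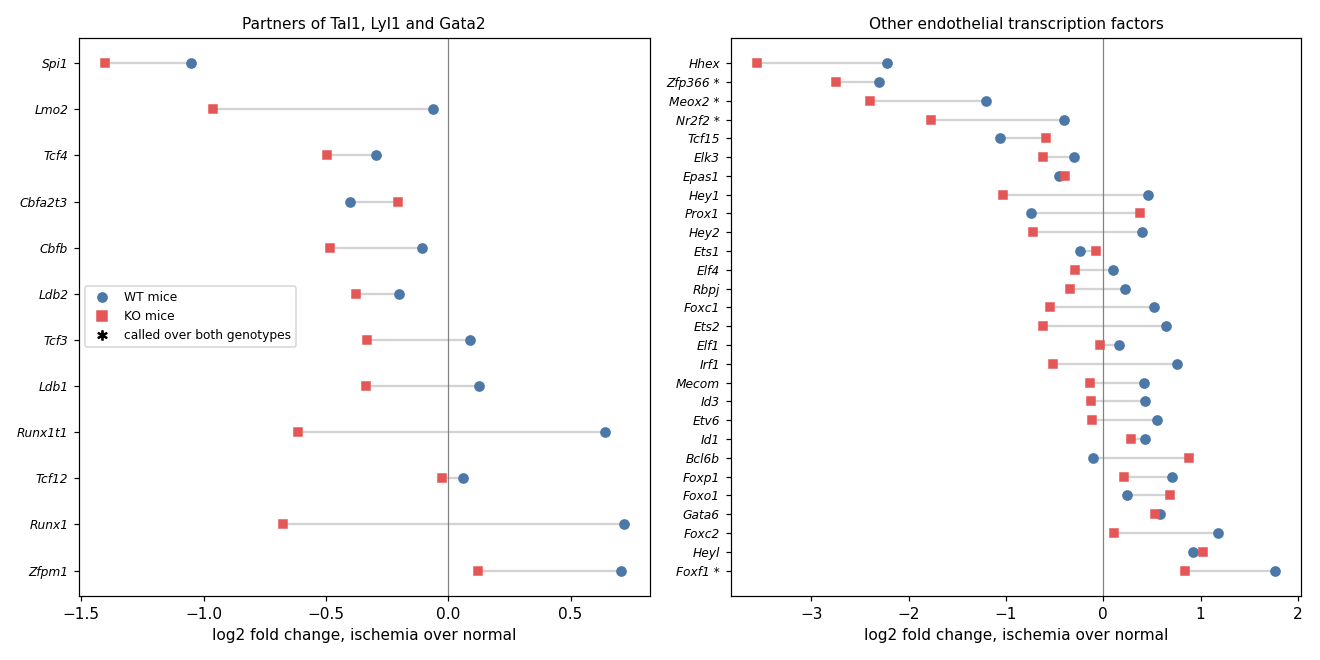
Log2 fold change of ischemic over normal mice in WT (circles) and KO mice (squares) for the 12 tested partners of Tal1, Lyl1 and Gata2 and for the 28 other endothelial transcription factors, ordered by the value over both genotypes; a star marks the 4 genes called over both genotypes. In the left panel 11 of the 12 KO values lie below 0, against 6 of the 12 WT values.

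Of 30 listed endothelial target genes, 1 fell over both genotypes and 0 rose. That gene was Aplnr, the apelin receptor, at 4.06 to 33.5 CPM in normal and 0.338 to 3.10 CPM in ischemic mice, with a log2 fold change of −3.05 (SE 0.55, FDR = 0.0221). The median of the 30 was −0.22 against −0.05 over all genes. Nos3 and Thbd, targets of Klf2 that make nitric oxide and bind thrombin, were at 0.22 (SE 0.21) and 0.11 (SE 0.25) over both genotypes. The general markers Pecam1, Cdh5, Vwf, Tek, Tie1 and Kdr lay between −0.72 and −0.02 with an FDR of 0.336 or more. None of the 30 was called in WT or KO mice alone, where 3 and 7 had an unadjusted p under 0.05. Of all 17693 tested genes, 1693 and 2340 did there.

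The summed level of the 12 endothelial markers overlapped between all 4 groups, at 889 to 2079 CPM in normal WT, 1066 to 1593 in normal KO, 905 to 1538 in ischemic WT and 761 to 1372 CPM in ischemic KO mice. Set against that sum, all 7 ischemic mice lay below all 7 normal ones in Lyl1 and Sox18, as in CPM, and also in Klf2, which in CPM overlapped by 1 mouse. Per 1000 CPM of endothelial markers, Klf2 was at 87.2 to 143.0 in the 7 normal and 44.7 to 82.2 in the 7 ischemic mice, Sox18 at 19.8 to 56.1 and 7.32 to 15.4, and Lyl1 at 3.23 to 8.71 and 0.643 to 2.99. The other 7 genes overlapped on this scale. After group means were removed, Pearson's r with the sum was 0.019 for Lyl1, 0.708 for Sox18 and 0.755 for Klf2. Lyl1 thus did not follow the sum within groups. The share of all tested genes without overlap on this scale was not computed, so how unusual these separations are cannot be said. With the endothelial sum as a covariate, Klf2 was at −0.86 (FDR = 0.0634) and Gata2 at −1.20 (FDR = 0.143) over both genotypes.

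Summed levels of blood cell markers differed between the groups and were not tested. The 7 erythroid markers, mostly globin RNA, summed to 106.7 to 251.7 CPM in normal WT, 345.8 to 592.1 in normal KO, 4.65 to 108.7 in ischemic WT and 75.9 to 186.2 CPM in ischemic KO mice. Of them Klf1 was at most 0.426 CPM, and at 0 in several mice. The 6 leukocyte markers, all detected with Laptm5 at most 1.09 CPM, summed to 29.9 to 46.4, 38.1 to 201.8, 8.03 to 26.9 and 12.8 to 57.5 CPM in the same order. Normal and ischemic mice overlapped in the erythroid sum in WT but not in KO mice, and in the leukocyte sum in KO but not in WT mice. The 6 neutrophil markers had medians of 4.19 and 6.67 CPM in normal WT and KO mice and of 4.72 and 6.64 CPM in ischemic ones, with overlap in both genotypes. In the same order the medians were 2.06, 6.35, 0.953 and 0.925 CPM for 7 lymphocyte markers and 76.7, 190.1, 79.6 and 84.5 CPM for 6 macrophage markers. For 7 megakaryocyte and platelet markers they were 5.66, 6.44, 3.54 and 3.79 CPM. Normal and ischemic mice overlapped in each of these sums in both genotypes. The 4 normal KO mice, highest in Lyl1, were also highest in the erythroid sum, and the ischemic WT mouse with the lowest erythroid sum (4.65 CPM) had the highest Lyl1 of the ischemic mice (3.38 CPM). The part of blood cells in the Lyl1 levels was not tested.

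**Figure D5:**
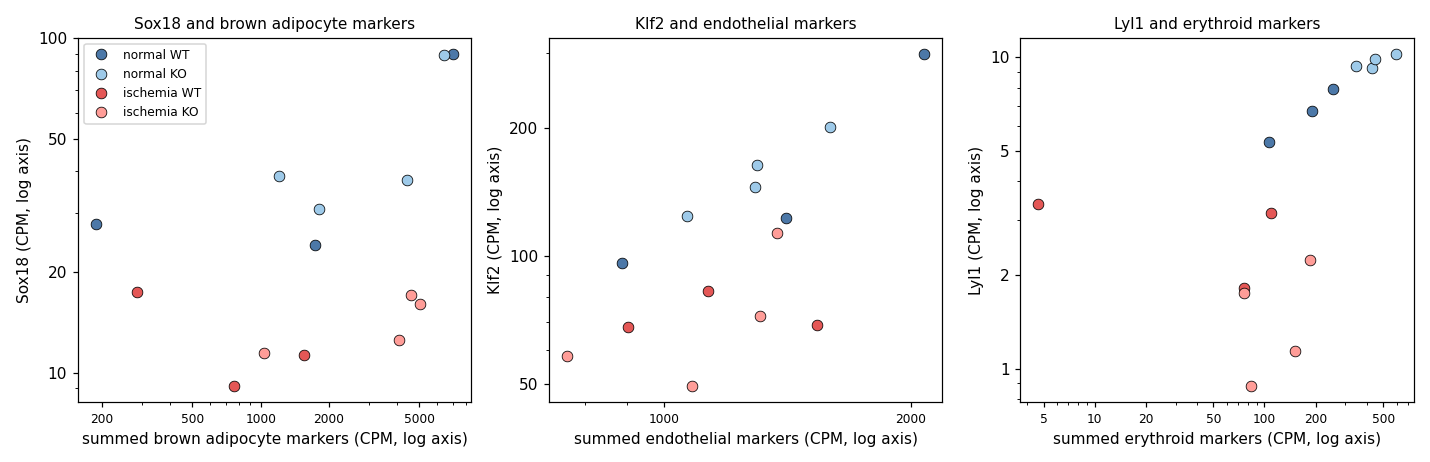
CPM of Sox18, Klf2 and Lyl1 in each of the 14 mice against the summed CPM of brown adipocyte, endothelial and erythroid markers, all axes logarithmic. The 2 normal mice with Sox18 near 89 CPM sit at the highest brown adipocyte sums, and the 3 ischemic KO mice with sums of 4067 to 5042 CPM have Sox18 at 12.5 to 17.1 CPM.

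Between genotypes, 0 of the 10 genes were called by edgeR under normal conditions, after ischemia, over both conditions or for the interaction, and 0% of all tested genes were (0 called of 17693 in each). At an unadjusted p under 0.05 there were 929, 1146, 1375 and 765 genes in these comparisons, and DESeq2 called 50, 32, 91 and 13. Of the 10, only Lyl1 had an unadjusted p under 0.05, after ischemia (log2 fold change of KO over WT −0.89, 95% interval −1.61 to −0.18, FDR = 0.715) and for the interaction. Tal1 was at 0.62 after ischemia (95% interval −0.01 to 1.24, FDR = 0.715). Klf2 was at the same mean in ischemic WT and KO mice, 73.1 CPM, with a log2 fold change of 0.00 and an interval of −0.78 to 0.78, so differences of up to about that size in either direction were not shown to be absent. For Gata2 after ischemia the value of −0.75 became 0.02 without ischemic WT replicate 1.

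Levels across the 10 genes can be compared per kb of exon. Mean CPM per kb over the 14 mice ran from Klf2 (64.2 ± 36.5, SD) through Klf4 (27.5 ± 10.8), Sox18 (19.1 ± 16.4), Fli1 (7.71 ± 3.74), Sox17 (5.67 ± 2.59), Sox7 (4.95 ± 3.15), Gata2 (3.85 ± 2.42), Erg (3.32 ± 0.655) and Lyl1 (2.91 ± 1.99) to Tal1 (1.19 ± 0.285). From Klf4 to Tal1 neighbours differed by less than the larger of their SDs, so this part of the order is not firm. The order also pools groups that differ, and in ischemic KO mice Lyl1, at 0.834 ± 0.337 CPM per kb (SD, n = 4), was below Tal1, at 1.36 ± 0.246. Erg and Tal1 varied least, by 2.36 and 2.18 times between the lowest and the highest mouse, and Lyl1 most, by 11.6 times.

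The genes whose levels were most like those of each member over the 14 mice were found by Pearson's r of log2 CPM among all tested genes, and are given as a description, without a p, since the mice fall into 4 groups. Sox18 and Klf2 were close to each other (r = 0.935, and 0.834 after group means were removed), and both had Pdgfb, a growth factor made by endothelium that recruits mural cells, among their 3 most alike genes (r = 0.934 and 0.956). For Klf2 the others were Arhgef15 and Fgd5, guanine exchange factors of endothelium (r = 0.946 and 0.937), and for Sox18 Mpp1 (r = 0.945). For Fli1 they were Mylip, Arhgef15 and Mars2 (r = 0.917, 0.911 and 0.900). For Lyl1 they were Rsrp1, Clec1a, a lectin receptor of endothelium, and Upf1 (r = 0.951, 0.936 and 0.907). After group means were removed, r was 0.74 for Rsrp1, 0.571 for Clec1a and 0.784 for Upf1. For Gata2 the most alike gene was Lfng, which modifies Notch (r = 0.944). Tal1 and Lyl1 had an r of 0.062, and Erg had a negative r with 8 of the other 9 genes, down to −0.595 with Fli1. For Sox7, Sox17, Erg, Klf4 and Tal1 the most alike genes were Dus1l, Capns1, Rpl17-ps5, Sumo2 and 1810043G02Rik (r = 0.934, 0.878, 0.888, 0.927 and 0.850).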

How the data were processed

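RNA of the superior mesenteric artery of 14 mice was sequenced. The authors aligned reads with HISAT2 2.0.4 to mm10 (per the labels' tool notes) and deposited raw counts per gene symbol; the counter, annotation and use of strand are not given in the sources used here. Groups were taken from the labels, which do not say that same-numbered mice are paired. RNA was extracted with Trizol.

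From the deposited counts, genes with low counts were removed by group (edgeR's filterByExpr), which left 17693 of 27727 genes with any count. Libraries were scaled by TMM, and 1 quasi-likelihood fit of all 4 groups (edgeR 4.0.16, R 4.3.3, limma 3.58.1) gave 7 contrasts, which share mice with each other. Two-sided p-values were adjusted by Benjamini-Hochberg over all tested genes. Calls needed an FDR below 0.05 and a change of more than 1.5-fold. Log2 CPM for likeness used a prior count of 2. Depth was 25612646 to 40255851 counts, and floors of 3 counts cover counting error only, whereas intervals of fold changes come from the fit and cover the spread between mice. DESeq2 1.42.0, other scalings and filters, a replicate block, mice left out and marker covariates were alternatives, and the last and the 2 mice left out together were chosen after seeing the data. The edgeR test was also run on simulated counts, drawn independently for each gene and mouse with the spread fitted here. These counts held no shared shifts in tissue makeup, so they do not check the test under such shifts.

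The 10 genes and the lists of related genes were chosen with earlier results of these data known. Named were the 10 genes, related genes past the limits, a fixed set of well-known relatives, and the 3 genes most alike to each member by Pearson's r. Gene positions and exon lengths came from GENCODE M21 (GRCm38). No column of the count table was left unused.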

Additional observations from a re-analysis of the deposited data

Results flagged for a closer look

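Sox18 in the normal KO mice had 1 value far from the others, 89.4 CPM in replicate 4 against 30.9 to 38.7 CPM in the other 3 mice. The gap to the nearest mouse was 0.866 of the group's range, over Dixon's 95% critical value for 4 samples. Of 20 groups of 4 mice examined over the 10 genes this was the only one past the limit, and chance alone gives about 1 in 20. The same mouse had the highest brown adipocyte marker sum of its group, 6436 CPM, the part of which was not tested.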

How the results depend on the processing

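No direction of a called value turned. Against 2, 52, 164, 0, 0, 0 and 0 genes called for ischemia in WT, in KO and over both genotypes, for KO against WT under normal conditions, after ischemia and over both, and for the interaction, DESeq2 called 112, 613, 876, 50, 32, 91 and 13. Fitting only the groups compared gave 0 in WT and 267 in KO mice. Without the 2 normal mice highest in brown adipocyte markers there were 0, 115 and 50 for ischemia and 10, 1 and 60 between genotypes. Those markers as a covariate gave 5, 336 and 514 for ischemia and 3 and 6 between genotypes under normal and over both conditions, and endothelial markers as a covariate gave 4 in WT mice. With a replicate block the counts were 0 in WT mice and 1 for genotype over both conditions. Whether replicate numbers pair mice was not settled. Correlations of same-numbered deviations ran from −0.146 to 0.316, with 11 of 19 over 0.1, among them all 3 pairs of normal and ischemic WT mice (0.12 to 0.192) but only 2 of the 4 such KO pairs. With each of the mice omitted once, there were 0 to 3, 5 to 174 and 60 to 361 genes for ischemia in WT, in KO and over both genotypes. The lowest and highest were without normal KO replicate 3 and normal WT replicate 2 in KO mice, whereas over both genotypes the lowest came without normal KO replicate 2 or ischemic KO replicate 2 and the highest without normal WT replicate 1. Between genotypes the ranges were 0 to 29, 0 to 0 and 0 to 102 (29 and 102 without normal WT replicate 2), and 0 to 0 for the interaction.

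For the 10 genes, the calls of Lyl1 were kept in every alternative run, whereas Sox18 over both genotypes lost its call in 5 of 14 fits with a mouse left out (FDR 0.0154 to 0.0816). Beside the values given above, Klf2 over both genotypes passed with upper-quartile scaling (FDR = 0.0425), no filter (0.0346), at least 10 counts in every mouse (0.0416), the brown adipocyte covariate (0.0218) and the replicate block (0.0319), and Gata2 with that covariate (0.0421). In KO mice alone Sox18 and Gata2 passed when only the groups compared were fitted (FDR = 0.0349 and 0.0223), Sox18 with the brown adipocyte covariate (0.028), and Klf2 in DESeq2 (0.0409). Precision was limited by the spread between 3 or 4 mice rather than by depth. Calls of the related genes were not repeated under these settings.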
